A study of Mus musculus with 6 samples.

Results

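The exon junction complex is a protein assembly that the spliceosome leaves on an mRNA just upstream of each exon-exon junction. It travels with the mRNA into the cytoplasm, where it acts in export, localization, translation and nonsense-mediated decay, and the first ribosome to pass removes it. Its core is built from Eif4a3, a DEAD-box helicase that clamps the RNA, the Magoh and Rbm8a (Y14) heterodimer that locks the clamp, and Casc3 (also called MLN51 or Barentsz), a subunit that stabilizes the clamped complex and is found mainly in the cytoplasm. Magohb is a near-identical paralog of Magoh. In mouse cortex, loss of 1 copy of Eif4a3, Magoh or Rbm8a is known to reduce brain size, and the complex is known to bind the mRNA of the activity-induced gene Arc.

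The mRNAs of these 5 genes were examined for 5-methylcytosine (m5C) in RNA bisulfite sequencing data of mouse cortical neurons. Bisulfite turns unmethylated cytosine into uracil, so the level at a position is the share of reads in which the cytosine stayed unconverted. Members were all positions called as methylated cytosine on a reference C whose gene label was Casc3, Eif4a3, Magoh, Magohb or Rbm8a, which gave 1957 of 5240657 positions in all. Casc3 held 1134 of them, Rbm8a 341, Eif4a3 339, Magoh 96 and Magohb 47. Casc3 was selected on the measured levels themselves, because 1 position in its 3′ UTR had a large change from 0 h to 2 h, so the levels of that position are given as a description without a test, and the other core members serve as the comparison.

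The 6 libraries came from wild-type C57BL/6 cortical neurons of mouse embryos at E16.5 (embryonic day), male and female embryos pooled. All cultures, the 0 h controls included, were silenced from day 6 overnight with 1 µM TTX, a sodium channel blocker, and 100 µM DL-AP5, an NMDA receptor blocker, and were harvested on day 7. Depolarization with 55 mM KCl lasted 0 h, 2 h or 6 h, with 2 replicates each, and poly(A) RNA was sequenced. The labels number the replicates without saying whether they came from separate litters, so p-values from limma fits measure the spread between these samples, which may be partly technical. Those of Fisher's exact test, on reads added up over replicates, do not measure that spread. Cortical cultures are mixtures of cell types, and in bulk RNA fewer cells of a type and less RNA per cell cannot be told apart.

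A position was listed in a library only with coverage of at least 10 reads and at least 1 unconverted read. The libraries listed between 1564646 and 2380612 positions with median coverage of 324 to 480 reads. The 6 h replicate 1 stood apart, with the most positions and the lowest median coverage. Members had 710 and 621 listed positions before KCl, 799 and 842 after 2 h, and 1025 and 696 after 6 h, in the order of the replicates. Only 34 member positions were listed in all 6 libraries, 12 in Rbm8a, 11 in Eif4a3, 10 in Casc3, 1 in Magoh and 0 in Magohb.

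The 5 cytosines below are those the results turn on, shown as 21 nt of the RNA strand, 5′ to 3′, with the cytosine in capitals. The first is the changing position in the Casc3 3′ UTR, the next 3 are the position with the highest mean level among those listed in every library for each other core subunit, and the last is the highest other level in any member at a coverage of at least 100 reads. The bases are from the deposited context and equalled the reference at 1957 of 1957 member positions (GRCm38).
Casc3, chr11:98832478 (+), 3′ UTR: ctggacaaccCaggcgtcaga
Eif4a3, chr11:119293909 (−), CDS: ccgaccccatCcgcatcttgg
Magoh, chr4:107879939 (+), CDS: tgaattccgaCctgacggtaa
Rbm8a, chr3:96630329 (+), CDS: aaagaaaaagCaaagaaacgg
Magohb, chr6:131288061 (−), CDS: gctctgtggcCaccccctgac

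The Casc3 position carried an m5C level above every other member position with coverage of at least 100 reads, and its level was highest at 2 h. At 0 h the level was 24.7% in replicate 1 (36 of 146 reads, 95% Wilson interval 18.4 to 32.2%) and 9.9% in replicate 2 (13 of 131 reads, 5.89 to 16.2%). At 2 h it was 51.4% (91 of 177 reads, 44.1 to 58.7%) and 49.2% (62 of 126 reads, 40.6 to 57.8%). At 6 h it was 21.4% (69 of 322 reads, 17.3 to 26.2%) and 20.6% (70 of 339 reads, 16.7 to 25.3%). Both 2 h libraries lay above all 0 h and 6 h libraries, whereas the 6 h values fell between the 0 h replicates. The intervals cover counting error only, because PCR reads without molecular identifiers are not independent molecules.

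**Figure D1:**
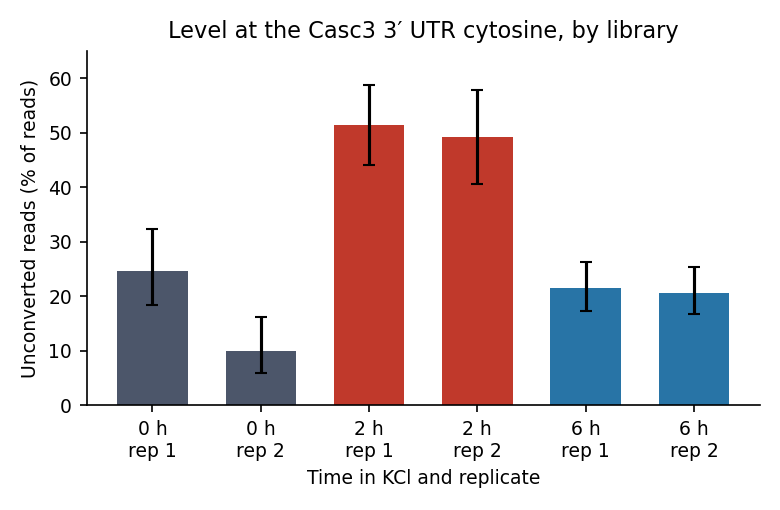
Level of the Casc3 3′ UTR position in each of the 6 libraries (y axis, % of reads unconverted; x axis, hours of KCl), with the 95% Wilson interval as the bar. The 2 h libraries sit at 51.4 and 49.2%, above the other 4, and the 0 h replicates differ from each other by more than the 2 h or 6 h replicates do.

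The mean level was 17.3% ± 10.5 (SD, n = 2) before KCl, 50.3% ± 1.56 after 2 h and 21.0% ± 0.566 after 6 h. The mean was thus 33.0 percentage points higher at 2 h than at 0 h, fell by 29.3 points from 2 h to 6 h, and ended 3.70 points above its 0 h value. The 0 h vs. 6 h difference was smaller than the SD of the 0 h replicates. The standard filter used here (coverage of at least 20, level of at least 10% and at least 6 unconverted reads) was met in 5 libraries and missed in 0 h replicate 2, whose level lay just under the level threshold. It is only 1 of the paper's filter steps. Those for reads with many unconverted cytosines, signal to noise and secondary structure were not applied here. Positions that met it are thus a wider set than the paper's high-confidence sites. Without 0 h replicate 2 the 0 h vs. 6 h difference turned to −3.70 points. Among 1938 nuclear-encoded positions listed in all 6 libraries that met the filter in both replicates of some time point, the rise from 0 h to 2 h ranked 9 and the fall from 2 h to 6 h ranked 10, while the median change from 0 h to 2 h was 0.0 points. Among the 876 of them labelled with 1 gene, the ranks were 8 and 10 and the median changes 2.97 and −0.85 points. These ranks describe how the position was chosen.

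Unconverted and converted reads at this position moved in opposite directions up to 2 h, and after that mainly the converted reads changed. After scaling for library size, coverage was 134.5 and 145.8 reads before KCl, 159.5 and 135.2 after 2 h, and 342.2 and 321.8 after 6 h. Coverage therefore differed little between 0 h and 2 h (1.05-fold) and was 2.37-fold that of 0 h at 6 h, when both libraries lay above all 4 earlier ones. Scaled unconverted reads numbered 33.2 and 14.5 before KCl, 82.0 and 66.5 after 2 h, and 73.3 and 66.4 after 6 h. Scaled converted reads numbered 101.4 and 131.3 before KCl, 77.5 and 68.7 after 2 h, and 268.9 and 255.3 after 6 h. From 0 h to 2 h the mean of unconverted reads was 3.12-fold and that of converted reads 0.628-fold, with no overlap between groups in either. From 2 h to 6 h unconverted reads stayed near the same number (0.941-fold) with overlapping replicates, and converted reads were 3.59-fold. The lower level at 6 h thus came with more converted reads rather than fewer unconverted ones, and at 6 h the scaled unconverted reads were 2.93-fold those of 0 h. Because the 0 h replicates differed, the 3.12-fold at 2 h became 5.12-fold without 0 h replicate 1 and 2.23-fold without 0 h replicate 2, and the 2.93-fold at 6 h became 4.81-fold and 2.1-fold. These values describe the chosen position and were given no test.

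**Figure D2:**
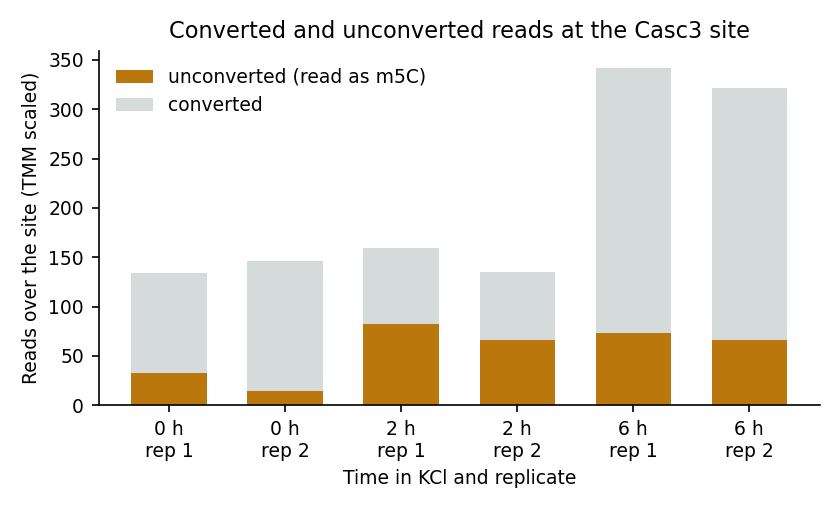
Reads over the Casc3 3′ UTR position in each library, scaled for library size (y axis, reads), stacked as unconverted and converted. Unconverted reads go from 33.2 and 14.5 at 0 h to 82.0 and 66.5 at 2 h and remain 73.3 and 66.4 at 6 h, while converted reads reach 268.9 and 255.3 only at 6 h.

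The position lies 260 nt after the stop codon of Casc3, 16.3% along a 3′ UTR of 1596 nt (Casc3, ENSMUSG00000078676, chr11:98804905-98833814, + strand, 15 exons). It is the base 218 nt into the last exon (chr11:98832261-98833814), whose junction with exon 14 lies 42 nt after the stop codon, and the transcript goes on for 1336 nt. The motif CAGG starting at the cytosine occurred at 61 of the 1869 member positions with coverage of at least 20 in some library (3.26%) and at 2.93% of all nuclear-encoded positions so covered. This motif is that of the Casc3 position itself, the only member position to meet the filter, so that 1 of the 61 met it was fixed in advance. Over those nuclear-encoded positions 0.102% of those with CAGG met the filter compared with 0.0436% of the others. Predicted base pairing of the cytosine in a window centred on it was 0.574 at 70 °C, above 59.0% of the 1034 exonic Casc3 cytosines folded the same way, and 0.0965 at 37 °C, above 21.3% of them. The position was therefore unremarkable in the first setting and among the less paired cytosines in the second.

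Cytosines next to the position did not share its level. Of 52 other cytosines within 100 nt, 2 and 6 were listed before KCl, 51 and 7 after 2 h, and 11 and 8 after 6 h, in replicate order. At coverage of at least 100 reads the highest level among them was 0.7 and 1.7% before KCl, 2.2 and 1.5% after 2 h, and 1.6 and 1.9% after 6 h. In 2 h replicate 1, which listed nearly the whole window, 46 of the 51 positions had exactly 1 unconverted read. Whether those single reads were the same molecule was not tested, and 1 read is a small part of the 91 unconverted reads at the position in that library.

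No other member position with coverage of at least 100 reads came near the Casc3 level. Across the 6 libraries the members other than the Casc3 position gave 4687 values, of which 61.7% rested on 1 unconverted read, and no value had more than 13. A level of at least 10% was reached by 23 of the values, at 22 positions, each with coverage of at most 20 reads and at most 3 unconverted reads. With coverage of at least 100 reads, the highest was the Magohb coding position at chr6:131288061, with 5.3% in 6 h replicate 1 (6 of 114 reads). The same position had 0.9% in 6 h replicate 2 (1 of 106 reads) and was not listed in the other 4 libraries. The standard filter in both replicates of a time point was met by 2292 positions before KCl, 2234 after 2 h and 2552 after 6 h, and by 0, 1 and 1 member positions, which is the Casc3 position each time.

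**Figure D3:**
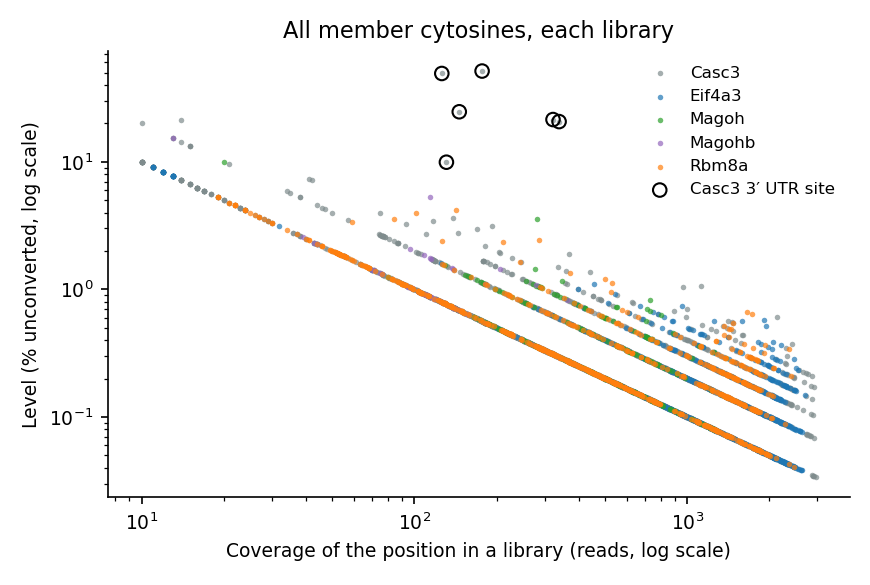
Level (y axis, %, log scale) against coverage (x axis, reads, log scale) for every listed member position in every library, with the Casc3 3′ UTR position circled. The diagonal bands are positions with 1, 2, 3 and more unconverted reads, and the circled points stand above all others with coverage of at least 100 reads, of which the highest is 5.3%.

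For the clamp and its lock the positions listed in every library carried levels below 1% throughout. The Eif4a3 position printed above had 0.4 and 0.2% before KCl, 0.3 and 0.2% after 2 h, and 0.3 and 0.1% after 6 h. The Magoh position had 0.2 and 0.2%, 0.1 and 0.6%, and 0.4 and 0.8%, and the Rbm8a position had 0.2 and 0.4%, 0.5 and 0.2%, and 0.2 and 0.3%. The groups overlapped at all 3 positions, except that both Magoh values at 6 h lay above both at 0 h. All 9 positions that these 3 genes and the Casc3 label contributed by this rule besides the 3′ UTR position ranged from 0.0 to 0.8% at coverage of 463 to 2280 reads.

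Level differences were tested at each cytosine with coverage of at least 10 in all 4 libraries of a comparison, with reads added up over replicates, by the exact test of Fisher (two-sided), and p-values were adjusted over every cytosine tested (Benjamini-Hochberg). For 0 h vs. 2 h the test called 737 of 290685 cytosines (0.254%) and 1 of 66 member positions. For 0 h vs. 6 h it called 2123 of 328102 (0.647%) and 0 of 96 member positions. For 2 h vs. 6 h it called 2316 of 347727 (0.666%) and 1 of 99. These shares depended on single libraries: leaving out each in turn gave 0.0877 to 0.165%, 0.104 to 1.26% and 0.0857 to 1.44%, the highest of the last 2 without 6 h replicate 2 and every other one below the share with all libraries. The member called was the Casc3 position both times, which the rule had chosen for this change, so nothing is read from that call. Summing reads leaves out the spread between replicates, and limma on per-library log2 ratios called 0 member positions in all 3 comparisons, where it called 108, 29 and 0 of all cytosines tested (0.0372%, 0.00884% and 0.0%), so that count says nothing about the members.

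Apart from the Casc3 position, 0 member positions were called by the Fisher test, while 1 of 65, 2 of 95 and 6 of 98 had an unadjusted p under 0.05 (1.54%, 2.11% and 6.12%, beside 6.55%, 8.41% and 9.2% of all cytosines tested). Their level differences were at most 0.388 points between 0 h and 2 h, 0.734 between 0 h and 6 h, and 2.43 between 2 h and 6 h. The smallest p for 0 h vs. 6 h was at the Rbm8a coding position chr3:96630941, with 0.3 and 0.3% at 0 h and 0.0 and 0.0% at 6 h (Fisher's exact test, p = 0.00303, adjusted p = 0.182). Only the listed positions, those with at least 1 unconverted read, entered the test.

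The gene label of Casc3 mixed reads of different transcripts. Of its 1134 positions 423 (37.3%) lay in exons of the overlapping gene Msl1, which runs on the same strand and encodes a subunit of a histone acetyltransferase complex, mostly within intron 1 of Casc3. Of the 10 Casc3-labelled positions listed in all 6 libraries, 9 were Msl1 exons. The exonic cytosines of the Casc3 transcript were listed at 679 of 1057 places (64.2%), compared with 339 of 387 (87.6%) for Eif4a3, 95 of 133 (71.4%) for Magoh, 47 of 132 (35.6%) for Magohb and 340 of 487 (69.8%) for Rbm8a. Coverage was therefore compared on cytosines in exons of 1 gene only, with the CDS and the 3′ UTR apart, as mean reads per cytosine scaled for library size. The 3 comparisons share libraries, so their values are not independent of each other.

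On this scale the coverage of Casc3 more than doubled at 6 h, in its CDS and its 3′ UTR alike, and was near its starting value at 2 h. The Casc3 CDS (291 positions) had 398 and 424 reads per cytosine before KCl, 355 and 362 after 2 h, and 1005 and 912 after 6 h. Both 6 h libraries stood above all others, and the 2 h libraries lay below the 0 h ones. The log2 change was −0.19 ± 0.078 (SE) for 0 h vs. 2 h (limma, adjusted p = 0.0857), 1.22 ± 0.078 for 0 h vs. 6 h (2.33-fold, adjusted p = 9.34e-06) and 1.41 ± 0.078 for 2 h vs. 6 h (2.67-fold, adjusted p = 1.28e-05). Among 12761 CDS and 3′ UTR units the last 2 ranked 465 and 259 from the highest.

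The Casc3 3′ UTR (145 positions) had 126 and 112 reads per cytosine before KCl, 116 and 105 after 2 h, and 262 and 272 after 6 h. Groups overlapped between 0 h and 2 h and did not overlap with 6 h. The log2 change was −0.10 ± 0.119 (SE, limma, adjusted p = 0.541), 1.17 ± 0.119 for 0 h vs. 6 h (adjusted p = 8.12e-05) and 1.27 ± 0.119 for 2 h vs. 6 h (adjusted p = 7.69e-05). The ratio of 3′ UTR to CDS coverage changed by −0.05 on the log2 scale from 0 h to 6 h (adjusted p = 0.875). The Msl1 exons under the Casc3 label had 513 and 511 reads per cytosine before KCl, 645 and 629 after 2 h, and 663 and 655 after 6 h in a fit over whole genes, a rise already present at 2 h (0.31, adjusted p = 0.00409). In the same fit the exons of Casc3 alone changed by −0.14 at 2 h (limma, adjusted p = 0.151) and 1.22 at 6 h (adjusted p = 1.17e-05).

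**Figure D4:**
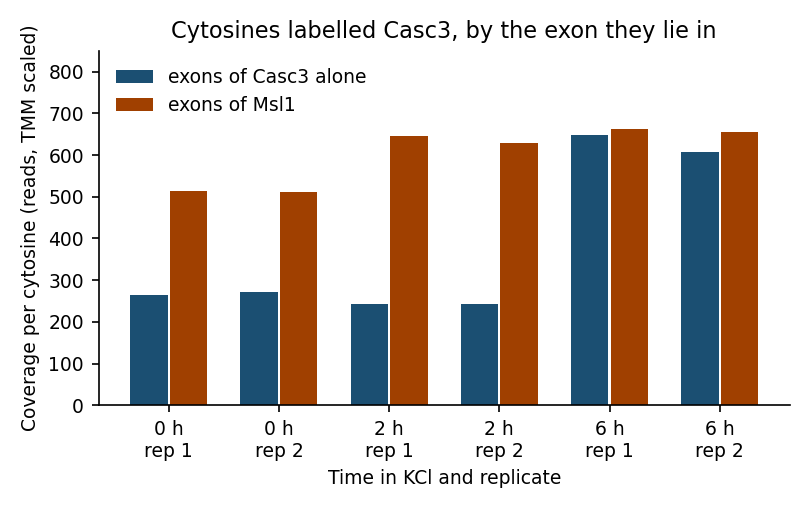
Coverage per cytosine scaled for library size (y axis, reads) in each library by hours of KCl for Casc3-labelled cytosines in exons of Casc3 alone and in exons of Msl1. The Msl1 part rises from 513 and 511 at 0 h to 645 and 629 at 2 h, and the Casc3 part stays low until 6 h.

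Eif4a3, the RNA clamp, had the highest CDS coverage of the members and was called only for 0 h vs. 2 h. Its CDS (236 positions) had 1100 and 1240 reads per cytosine before KCl, 1325 and 1519 after 2 h, and 1256 and 1290 after 6 h. Both 2 h libraries lay above the others, and the 6 h libraries lay above both 0 h ones. The log2 change was 0.28 ± 0.086 (SE, limma, adjusted p = 0.0351) for 0 h vs. 2 h, 0.12 (adjusted p = 0.234) for 0 h vs. 6 h and −0.16 (adjusted p = 0.147) for 2 h vs. 6 h. The 2 h call was kept in 2 of 6 fits that left out 1 library and was lost without 0 h replicate 1, 2 h replicate 2, 6 h replicate 1 or 6 h replicate 2 (adjusted p from 0.00653 to 0.211).

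Magoh, which locks the clamp together with Rbm8a, rose at 2 h. Its CDS (65 positions) had 452 and 475 reads per cytosine before KCl, 710 and 732 after 2 h, and 507 and 600.4 after 6 h, and the 3 groups did not overlap. The log2 change was 0.64 ± 0.091 (SE, limma, adjusted p = 0.00125) for 0 h vs. 2 h, 0.25 ± 0.091 (adjusted p = 0.0401) for 0 h vs. 6 h and −0.39 ± 0.091 (adjusted p = 0.00668) for 2 h vs. 6 h. The first and last of these were called without any single library, while the 0 h vs. 6 h call was lost without 0 h replicate 1, 0 h replicate 2 or 6 h replicate 2 (adjusted p from 0.0136 to 0.267).

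Magohb was too thinly listed for this fit, with 5, 8, 2, 3, 45 and 2 positions in the 6 libraries in order of time and replicate and median coverage of 182, 274, 125, 112, 112 and 104.5 reads. Of the 45 positions in 6 h replicate 1, 39 had 1 unconverted read. The proteins of Magoh and Magohb are nearly identical. Uniquely placed reads were used, and how many reads could have come from either gene was not measured, so the coverage of both is uncertain.

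Rbm8a held its CDS coverage and lost 3′ UTR coverage at 6 h. The CDS (99 positions) had 943 and 966 reads per cytosine before KCl, 919 and 884 after 2 h, and 1009 and 934 after 6 h, with 0 h and 6 h overlapping and no comparison called (log2 changes −0.08, 0.02 and 0.11 with limma adjusted p of 0.357, 0.764 and 0.189). The 3′ UTR (121 positions) had 304 and 280.3 reads per cytosine before KCl, 261 and 302 after 2 h, and 155 and 191 after 6 h. Both 6 h libraries lay below the other 4. The log2 change was −0.06 ± 0.13 (SE, limma, adjusted p = 0.767) from 0 h to 2 h, −0.76 ± 0.13 for 0 h vs. 6 h (0.59-fold, adjusted p = 0.00119) and −0.70 ± 0.13 for 2 h vs. 6 h (0.614-fold, adjusted p = 0.00199).

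The ratio of 3′ UTR to CDS coverage of Rbm8a was lower at 6 h but missed the threshold. Among 4448 genes with both segments the ratio was called in 0.202% at 2 h against 0 h, 1.98% at 6 h against 0 h and 0.652% between 2 h and 6 h. Rbm8a had a log2 change of −0.79 ± 0.162 (SE, limma, adjusted p = 0.0643) and −0.81 ± 0.162 (adjusted p = 0.0967), which ranked 55 and 33 from the lowest. The 3′ UTR of Rbm8a (2057 nt of a 2608 nt transcript) is much longer than its CDS of 522 nt, and which polyadenylation site the reads came from was not tested.

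**Figure D5:**
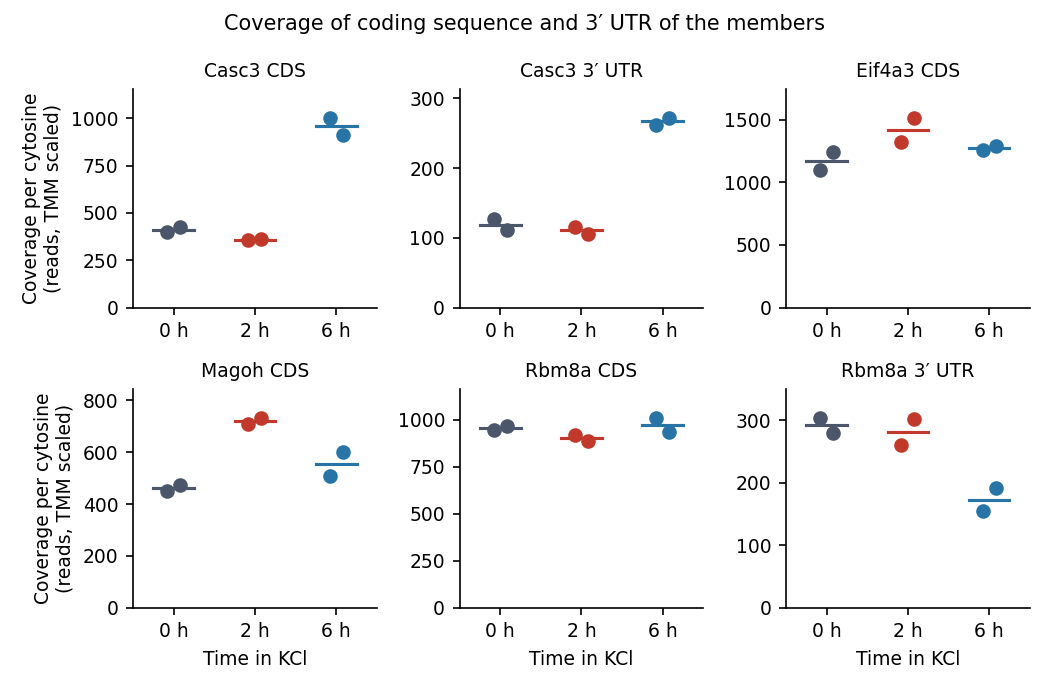
Coverage per cytosine scaled for library size (y axis, reads) by hours of KCl (x axis) for the CDS and 3′ UTR of each member that could be fitted, with points for libraries and the line through the group means. Casc3 is highest at 6 h in both segments, Magoh at 2 h, and the Rbm8a 3′ UTR is lowest at 6 h.

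Of the 6 member units, 2 were called at 2 h and 4 at 6 h against the 0 h controls, and 4 between 2 h and 6 h, which is 33.3%, 66.7% and 66.7%, beside 37.1%, 64.7% and 62.6% of all units. These shares lie near the background, and there were only 6 units. Per cytosine, the order of CDS coverage at 0 h was Eif4a3 (1169.7 ± 99.0, SD, n = 2), Rbm8a (954.8 ± 16.1), Magoh (463.4 ± 16.3) and Casc3 (411.0 ± 18.5). At 6 h it was Eif4a3 (1273.1 ± 23.6), then Rbm8a (971.4 ± 52.9) and Casc3 (958.4 ± 65.7), which did not differ beyond their spread, then Magoh (553.5 ± 66.4). The SDs are those between 2 libraries, and fragmentation and priming differ between sequences.

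Markers of the cell types in the culture also moved with time. The summed coverage per cytosine of the 5 neuronal markers ran from 9215.1 to 9804.5 before KCl, 6606.9 to 7238.3 after 2 h and 6447.7 to 6640.5 after 6 h. That fall was carried by Tubb3, a neuronal tubulin (log2 changes −0.88 and −1.14 against 0 h), while the other 4 summed to 2975.5 to 3206.8, 3220.1 to 3668.1 and 3593.8 to 3652.3, with Snap25, a synaptic vesicle fusion protein, higher at 6 h (0.65, limma, adjusted p = 0.00018) and Rbfox3, a neuronal splicing factor, lower (−0.28, adjusted p = 0.0187). The 2 GABAergic markers summed to 853.0 to 903.4, 1248.6 to 1268.2 and 2089.4 to 2254.6, and the 2 glutamatergic ones to 503.1 to 537.2, 499.0 to 539.0 and 455.9 to 464.1. The 4 astrocyte markers summed to 2965.6 to 3010.4, 2910.4 to 3048.5 and 2376.2 to 2499.0, and the 4 of the oligodendrocyte lineage to 2255.8 to 2380.1, 1714.0 to 1849.2 and 2758.1 to 2834.7. Of 3 microglial markers only Cx3cr1 could be fitted, at 251.4 to 277.8, 178.5 to 203.4 and 140.2 to 149.9, and the 2 proliferation markers summed to 428.9 to 475.4, 380.6 to 494.5 and 299.7 to 349.7. Olig1 made up most of the oligodendrocyte lineage sum and rose at 6 h (0.29, limma, adjusted p = 0.00372), whereas Pdgfra fell by 0.37 (adjusted p = 0.00954) and Olig2 rose by 0.54 (adjusted p = 0.000555). The part of these shifts in the Casc3 and Rbm8a changes at 6 h was not tested. Fos, an immediate early gene, had 17.1 and 20.7 reads per cytosine before KCl, 2639.0 and 2703.7 after 2 h, and 1562.7 and 1422.8 after 6 h, highest at 2 h. Npas4, Arc and Egr1, listed for the same check of depolarization, could not be fitted.

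Genes that work with the complex were read from a list of 39, holding its peripheral partners, mRNA export and cap-binding factors, SR proteins and nonsense-mediated decay factors. In the fit over genes with at least 10 positions listed in all 6 libraries, 10 of the 39 could be tested. Between 0 h and 2 h 4 were called, 3 higher and 1 lower, beside 27.1% of 2066 genes (14.0% higher, 13.1% lower). Between 0 h and 6 h 7 were called, 3 higher and 4 lower, beside 61.4% of genes (28.9% higher, 32.5% lower). Between 2 h and 6 h 6 were called, 3 in each direction, beside 50.1% of genes (22.8% higher, 27.3% lower). Their median log2 changes were −0.04, 0.12 and −0.02, beside −0.02, −0.01 and −0.03 for all genes tested. In this fit, which used gene labels and positions with an unconverted read in every library, 3 members could be tested and 1 was called in each comparison. Casc3-labelled cytosines, nearly all of them Msl1 exons, were called for 0 h vs. 2 h (0.24, adjusted p = 0.0247) and 0 h vs. 6 h (0.30, adjusted p = 0.00453), and Rbm8a for 2 h vs. 6 h (0.20, adjusted p = 0.0369). The Casc3-label call for 0 h vs. 2 h was lost in 5 of 6 fits without 1 library, all but the fit without 2 h replicate 2 (adjusted p from 0.0251 to 0.112), and on each library's own positions (adjusted p = 0.365). The Rbm8a call rested on CDS positions and was lost in 5 of 6 fits without 1 library, all but the fit without 2 h replicate 1, and on each library's own positions (adjusted p = 0.271). The fit over whole genes, which adds 3′ UTR positions, called Rbm8a in the opposite direction (−0.194, adjusted p = 0.0282).

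Sap18 and Pnn, subunits of the peripheral ASAP and PSAP complexes, had the largest rises of the 10. Sap18, shared by both complexes, had 2480.4 and 2559.2 reads per cytosine before KCl, 6352.0 and 6315.5 after 2 h, and 6076.9 and 6592.0 after 6 h. Both later time points lay far above 0 h and overlapped each other, and the log2 change was 1.33 for each (limma, adjusted p = 8.3e-05 and 3.85e-05). Pnn (pinin) rose by 0.82 at 2 h (adjusted p = 0.013) and 0.94 at 6 h (adjusted p = 0.00277), and Rnps1 fell between 2 h and 6 h by 0.30 (adjusted p = 0.00463). The poly(A)-binding protein Pabpc1 rose by 0.44 and 0.41. Ddx39b, a helicase of mRNA export, fell by 0.45 at 6 h (adjusted p = 0.000683), and the SR protein Srsf3 fell by 0.40 (adjusted p = 0.00285). Srsf7, another SR protein, fell by 0.40 at 2 h (adjusted p = 0.0122) and rose by 0.56 between 2 h and 6 h (adjusted p = 0.00188). Stau2, an RNA-binding protein of dendritic transport, fell by 0.24 at 6 h (adjusted p = 0.0454), and the release factor Gspt1 and the SR protein Srsf1 each rose by 0.28 between 2 h and 6 h.

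A fit that also used positions missing from some libraries, chosen after the data had been seen, reached 37 of the 39 partners. Between 0 h and 2 h it called 15 of them (40.5%), 9 higher and 6 lower, beside 40.3% of 8990 units (19.2% higher, 21.0% lower). Between 0 h and 6 h it called 20 (54.1%), 17 higher and 3 lower, beside 65.5% of units (32.2% higher, 33.2% lower). Between 2 h and 6 h it called 20, 13 higher and 7 lower, beside 64.6% (32.2% higher, 32.5% lower). Cwc22, the splicing factor that delivers Eif4a3 to the spliceosome, had 250.4 and 226.0 reads per cytosine before KCl, 109.5 and 83.4 after 2 h, and 238.6 and 242.9 after 6 h. Its 2 h libraries lay below all others, and the log2 change was −1.31 ± 0.141 (SE, limma, adjusted p = 0.000443) and then 1.33 ± 0.141 (adjusted p = 0.000176). The cap-binding subunit Ncbp3 took the same course (−1.04, adjusted p = 0.00018, and 1.22, adjusted p = 4.45e-05).

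The same rule named several decay and termination factors in this fit. Etf1, the release factor that recognizes stop codons, rose by 1.06 at 2 h (adjusted p = 6.71e-05) and stood 0.86 above 0 h at 6 h. Upf3b, which links the complex to nonsense-mediated decay, fell by 0.66 at 6 h (adjusted p = 0.0031), and Smg9, a subunit of the SMG1 kinase complex, fell by 0.76 (adjusted p = 0.015). Pnrc2, an adaptor between decay and decapping, fell by 0.74 at 2 h (adjusted p = 0.000115), and the decapping factor Dcp1a rose by 1.2 between 2 h and 6 h (adjusted p = 0.000409). Thoc1, of the THO export complex, fell by 0.53 in that interval (adjusted p = 0.017).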

How the data were processed

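Per the paper's methods, the authors converted poly(A) RNA with bisulfite, primed it with random hexamers lacking G, made stranded libraries, aligned them to mm10 and called m5C with meRanTK; R 4.1.1 is named in the submitters' processing notes. The deposited tables, 1 per library, give for each position read counts (coverage and unconverted cytosines), the level as a fraction, a p-value and a score. Levels of single libraries are the deposited ones, which differed from those recomputed from the counts by at most 0.0005 as a fraction. The p-value and score were not used. The deposited tables are unfiltered for clustered unconverted cytosines and signal to noise.

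Groups followed the labels. Members and gene lists were chosen with earlier results of these data known. Positions were placed on GENCODE M21 transcripts (GRCm38). Named were all 5 members, member positions passing the standard filter, the 3 highest-level positions per member among those listed in all 6 libraries, and up to 3 called partners per direction and comparison.

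Levels were tested with Fisher's exact test (an implementation checked against scipy 1.17.1) and, as an alternative, limma 3.58.1. Coverage was scaled by TMM (edgeR 4.0.16) and tested with limma-trend on log2(coverage + 0.5), over genes with at least 10 positions listed in all 6 libraries. The fits with a position effect, by CDS and 3′ UTR (at least 10 positions listed in at least 2 libraries) and of their ratio were chosen after seeing the data. Adjusted p of 0.05 was the threshold, by Benjamini-Hochberg. Folding used ViennaRNA 2.7.2. On simulated data of 5000 nuclear positions the level test found 98 of 98 changes of 10 points and 79 to 85 of 102 changes of 2 points. That simulation used coverage of at least 50, no spread between replicates and adjustment over the 5000 positions only. The real test adjusted over far more positions, from a coverage of 10, so these shares do not carry over to it. For 0 h vs. 6 h changes of 1 on the log2 scale were found at 94 of 97 genes (gene-label fit, 2066 genes), 81 of 108 (position-effect fit, 8990 units) and 74 of 91 (ratio, 4448 genes). Changes of 0.5 were found at 88 of 103, 33 of 92 and 55 of 109. Depth limits levels: at the Casc3 position 126 to 339 reads per library.

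Neighbouring cytosines share reads, so coverage was treated as a continuous value. Same-numbered replicates were not paired in the main fits. Their deviations from the group means correlated at 0.448 (0 h vs. 2 h), −0.292 (0 h vs. 6 h) and −0.289 (2 h vs. 6 h) in the gene-label fit. In the position-effect fit the values were 0.282, −0.0785 and −0.104. A shared replicate effect at 0 h and 2 h was not tested, and fits with a replicate block are given below.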

Additional observations from a re-analysis of the deposited data

How the results depend on the processing

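At the Casc3 position the rise from 0 h to 2 h and the fall from 2 h to 6 h kept their direction under every alternative tried. The 0 h vs. 6 h difference (3.70 points) ranged from −3.70 to 11.1 points when each library was left out, and was −3.3 points in replicate pair 1 under the replicate block. Against 1 member position called at 2 h against both other time points, limma called 0, with or without the replicate block, where it called 108 and 49 of all 290685 cytosines for 0 h vs. 2 h and 0 of 347727 for 2 h vs. 6 h. The number of all positions called moved with the libraries used. Against 737 between 0 h and 2 h, 344 were called without 0 h replicate 1, 555 without 0 h replicate 2, 405 without 2 h replicate 1 and 669 without 2 h replicate 2. Against 2123 between 0 h and 6 h, the counts were 481 and 937 without 0 h replicate 1 and 2, and 515 and 5802 without 6 h replicate 1 and 2. Against 2316 between 2 h and 6 h, they were 688 and 989 without 2 h replicate 1 and 2, and 364 and 7041 without 6 h replicate 1 and 2.

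Of 3 members testable in the gene-label fit, 1 was called for each comparison. Total coverage scaling gave 2 for 0 h vs. 2 h, where it called 583 of 2066 genes, beside 559 in the main fit. Of 4 members testable in each, the fit on each library's own positions gave 0 at 2 h against both other time points (459 and 1951 genes called in all) and the position-effect fit gave 2, 3 and 3 (40.3%, 65.5% and 64.6% of all units). Leaving out a library moved the number of all genes called as well as that of members, so those member counts are not read as a result about the members. Partner calls (4, 7 and 6 of 10) became 7, 13 and 12 of 20 with at least 3 positions per gene (881, 1958 and 1676 genes called in all). They were 15, 20 and 20 of 37 in the position-effect fit (3619, 5884 and 5812 of 8990 units called in all). On each library's own positions they were 4, 7 and 6 of 37 (459, 2362 and 1951 genes called in all). The counts thus did not simply grow with the number tested, and they also moved when a library was left out.

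Directions that turned were small changes or different positions. The position-effect fit gave Casc3 −0.142 for 0 h vs. 2 h, on its own exons, and Rbm8a 0.018, −0.176 and −0.194 (the last 2 called) for the 3 comparisons, with 3′ UTR positions added to CDS ones. Rbm8a for 0 h vs. 6 h was −0.021 under total scaling and −0.01 to 0.016 leaving out libraries, and Eif4a3 −0.031 to 0.079. Eif4a3 for 2 h vs. 6 h was 0.133 on each library's own positions. Leaving out libraries gave −0.16 to 0.048 for the Rbm8a 3′ UTR (0 h vs. 2 h), −0.032 to 0.079 for its CDS (0 h vs. 6 h) and −0.186 to 0.085 for the Casc3 ratio (0 h vs. 6 h). With the replicate block the Eif4a3 2 h change of 0.281 and the Magoh change of 0.638 stayed called, and no other member call changed. The Casc3 6 h rise and the Rbm8a 3′ UTR fall were called in 6 of 6 fits without 1 library.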
